A study of Mus musculus with 21 samples.

Results

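The p62 and NRF2 stress response was followed at the DNA level through 6 genes in 21 mouse liver tumours: Sqstm1, Nfe2l2, Keap1, Nqo1, Gclc and Gclm. The genes were chosen by name, as members of one pathway, out of 17078 gene loci that could be tested on the arrays. A locus was every probe lying within 500 kb of a probe named for the gene, and 337 of 96579 probes fell into the 6 loci. Array comparative genomic hybridization measures the amount of tumour DNA at each probe relative to a reference DNA, and it says nothing about the mRNA or protein of these genes.

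Sqstm1 encodes p62, a cargo receptor that carries ubiquitylated material into autophagosomes and is itself degraded there. When p62 accumulates it binds KEAP1, the adaptor of a ubiquitin ligase that keeps the transcription factor NRF2 (encoded by Nfe2l2) at low levels, and NRF2 that escapes this degradation switches on antioxidant and detoxification genes. Among its targets are Nqo1, a quinone reductase, and Gclc and Gclm, the catalytic and the modifier subunit of the enzyme that limits glutathione synthesis. In liver, accumulation of p62 and sustained NRF2 activity are known from tumours that arise on chronic damage.

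All tumours came from C57BL/6 mice that had received a high-fat diet lacking choline (CD-HFD) for 12 months, which brings about NASH, a fatty liver with inflammation. Of these, 12 tumours were from mice that also received anti-PD1, an antibody against the T cell checkpoint receptor PD1, for 8 weeks, and 9 were from mice fed CD-HFD alone. Tumours whose sample names begin with the same number were taken to come from the same animal. On this reading each group held 7 mice, and 3 anti-PD1-treated and 2 CD-HFD mice gave several tumours, whereas the sample labels count each tumour as a mouse of its own. DNA came from fixed, paraffin-embedded sections, so that each value mixes tumour cells with whatever other cells the section held. The reference was 1 pool, named liver tails in the labels, hybridized with every tumour and always in the same dye.

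Slide 1 held 4 tumours of each group on an array design of 54635 probes. Slides 2 and 3 held 8 and 5 tumours on a design of 54677 probes, and 12733 probes were common to both. The share of spots with a tumour signal well above background ran from 65.0% in tumour L1 of mouse 608 (608 L1) upwards, with a median of 96.5%. The same tumour 608 L1 had the lowest correlation with the median of the arrays of its design (r = 0.67, against 0.75 to 0.90 for the others). Each locus rested on 15 to 63 probes per array, 15 to 17 at Nfe2l2 and 56 to 63 at Keap1. The number of probes limits the precision of every value given here.

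In the mm9 build, the probes named for the genes lay at chr11:50017882-50021363 (Sqstm1), chr2:75514973-75540590 (Nfe2l2), chr9:21035605-21042451 (Keap1), chr8:109919831-109923039 (Nqo1), chr9:77603072-77641446 (Gclc) and chr3:121958504-121965663 (Gclm). Keap1 and Gclc share chromosome 9, 56.6 Mb apart. The probes themselves are shown because the reading at a gene depended on which probe carried it. Capitals mark bases in a protein-coding exon of the gene in the GENCODE annotation of GRCm38, to which each probe matched at a single place, and lower case marks intron. The sequences are as deposited, and all of those shown matched the plus strand of that genome. Both probes named for Sqstm1, of which the first was only on slides 2 and 3 and the second only on slide 1, were:
Sqstm1, across an exon boundary, chr11:50021308-50021363: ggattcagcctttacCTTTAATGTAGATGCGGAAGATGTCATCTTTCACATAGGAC
Sqstm1, intron, chr11:50017882-50017941: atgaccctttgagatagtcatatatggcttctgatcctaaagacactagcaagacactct
The first gave a median log2 ratio of -0.80 (lowest -1.08, highest -0.23, 13 tumours) and the second -0.41 (lowest -0.69, highest -0.06, 8 tumours). Both were below 0 in every tumour that carried them, although the whole locus lay close to its chromosome, as described further on.

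Probes of a single gene also differed in the same tumours, and those of Gclc pointed opposite ways. The probes shown here for Nfe2l2 (an intron probe on all slides, then a coding exon probe on slide 1 only) and for Gclc (both on all slides) were:
Nfe2l2, intron, chr2:75529057-75529116: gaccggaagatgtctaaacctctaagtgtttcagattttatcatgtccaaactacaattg
Nfe2l2, coding exon, chr2:75514973-75515032: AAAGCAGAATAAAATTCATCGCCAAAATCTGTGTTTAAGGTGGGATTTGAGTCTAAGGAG
Gclc, intron, chr9:77603072-77603131: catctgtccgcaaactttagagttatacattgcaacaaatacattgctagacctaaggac
Gclc, intron, chr9:77629651-77629710: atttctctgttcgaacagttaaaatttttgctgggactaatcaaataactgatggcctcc
The intron probe shown for Nfe2l2 had a median of 0.66 and was above 0 in all 21 tumours, and the exon probe had a median of 0.12 over 8 tumours. Another intron probe of Nfe2l2 on all slides, not shown, had a median of 0.12 and was above 0 in 14 of 21 tumours. A further one, on slide 1 only, had a median of 0.24, above 0 in 6 of 8. At Gclc the first probe had a median of -0.29, above 0 in 2 of 21 tumours, and the second a median of 0.73, above 0 in 21 of 21. Nqo1 had a similar pair, both on slides 2 and 3. The pair shown for Keap1 was split between the designs, the first on slide 1 and the second on slides 2 and 3, so that these were read in different tumours:
Nqo1, intron, chr8:109919831-109919890: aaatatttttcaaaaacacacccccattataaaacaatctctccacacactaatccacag
Nqo1, intron, chr8:109922980-109923039: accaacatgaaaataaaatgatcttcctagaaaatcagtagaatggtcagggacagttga
Keap1, intron, chr9:21035605-21035664: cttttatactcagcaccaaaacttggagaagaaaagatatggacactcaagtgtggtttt
Keap1, intron, chr9:21039273-21039332: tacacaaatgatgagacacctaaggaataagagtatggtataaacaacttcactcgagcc
The medians were -0.94 and 0.12 at Nqo1, over 13 tumours, and -0.66 (8 tumours) and 0.27 (13 tumours) at Keap1. A further probe named for Keap1, in an exon and also on slides 2 and 3, had a median of -0.57. It was below 0 in all 13 tumours, so that probes of Keap1 also pointed opposite ways in the same tumours. Within the loci, the mean log2 ratio of a probe over tumours varied with an SD of 0.36 to 0.57 between probes, whereas the locus mean varied with an SD of 0.066 to 0.21 between tumours on the same design. Single probes were therefore not read as copy number, and all further values are means over the probes of a locus.

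The first question was whether tumours of anti-PD1-treated mice carried more or fewer copies of these genes than tumours of CD-HFD mice. At none of the 6 loci did the groups differ beyond the spread between mice. The locus log2 ratio was called different (adjusted p under 0.05 in limma, two-sided, with the mouse as block) at 0 of the 6 members and at 0 of all 17078 loci (0% called, 109 loci at an unadjusted p under 0.05).

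At Sqstm1, the locus log2 ratio was -0.32 in the lowest, -0.11 in the median and 0.13 in the highest of 12 anti-PD1 tumours, and -0.28, -0.10 and 0.07 in the same order in 9 CD-HFD tumours. The groups overlapped over almost their whole range, and 16 of 21 tumours were below 0. The means over mice were -0.10 ± 0.071 (SD, n = 7) with anti-PD1 and -0.095 ± 0.10 (SD, n = 7) without (exact permutation test over mice, p = 0.91, two-sided). The difference fitted by limma was -0.012, with a 95% confidence interval from -0.12 to 0.097.

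At Nfe2l2, the anti-PD1 tumours ranged from 0.12 to 0.34 (median 0.19) and the CD-HFD tumours from -0.22 to 0.43 (median 0.20). In 20 of 21 tumours the locus was above 0, and the exception was 1770 L1, a CD-HFD tumour. The fitted difference was 0.030 (95% confidence interval -0.084 to 0.14, exact permutation p = 0.70 over 7 and 7 mice).

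At Keap1, the anti-PD1 tumours ranged from -0.58 to -0.18 (median -0.32) and the CD-HFD tumours from -0.44 to 0.12 (median -0.31). Again 20 of 21 tumours lay on one side, here below 0, and 1770 L1 was again the exception. The fitted difference, -0.079, was the largest in size of the 6 and had a 95% confidence interval from -0.21 to 0.056 (exact permutation p = 0.33 over 7 and 7 mice).

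The targets of NRF2 lay nearer to 0. At Nqo1, the anti-PD1 tumours ranged from -0.29 to 0.26 (median 0.019) and the CD-HFD tumours from -0.15 to 0.32 (median -0.027). At Gclc, they ranged from -0.14 to 0.089 and from -0.15 to 0.32. At Gclm, they ranged from -0.13 to 0.20 and from -0.020 to 0.36. The groups overlapped at all 3 genes, and the highest value at both glutathione synthesis genes was that of 1770 L1. The fitted differences were 0.021 for Nqo1 (95% confidence interval -0.10 to 0.15), -0.032 for Gclc (-0.14 to 0.077) and -0.0029 for Gclm (-0.11 to 0.10), with exact permutation p of 0.93, 0.71 and 0.98 over 7 and 7 mice.

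**Figure D1:**
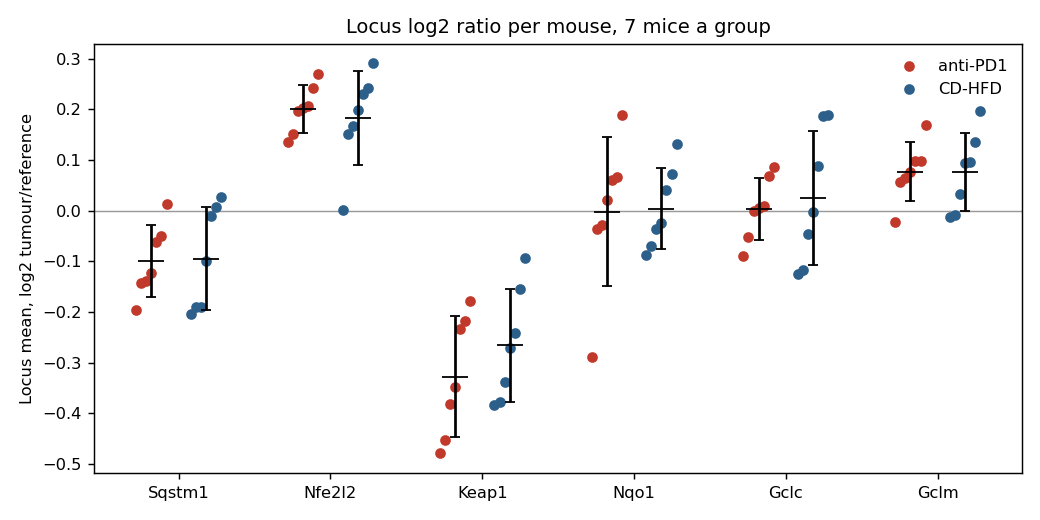
Locus log2 ratio of tumour over reference at the 6 genes (vertical axis, log2), with 1 point per mouse (mean of its tumours), red for anti-PD1 and blue for CD-HFD; black bars are the mean and SD over 7 mice. The groups overlap at every gene, with Nfe2l2 at or above 0 and Keap1 below 0 in all 14 mice.

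Ordered by the mean over 14 mice, Nfe2l2 was highest (0.19 ± 0.072), followed by Gclm (0.077 ± 0.065), Gclc (0.014 ± 0.10), Nqo1 (0.00073 ± 0.11), Sqstm1 (-0.097 ± 0.084) and Keap1 (-0.30 ± 0.12, SD, n = 14 mice for each). The steps from Nfe2l2 to Gclm and from Sqstm1 to Keap1 were larger than the SD of either neighbour, and the steps between the others were not. These SDs are between mice and leave out the spread between probes. After the GC correction described below, Nfe2l2 was at 0.13 ± 0.063 and the next gene, Nqo1, at 0.059 ± 0.11. Sqstm1 was then at -0.0059 ± 0.089 and Keap1 at -0.093 ± 0.093. Neither step was then larger than the SD of both neighbours.

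Since a locus also moves with its chromosome, its distance from the mean of the same chromosome in the same tumour was taken next. This distance did not differ between the groups at any member, with fitted differences from -0.034 at Nqo1 to 0.031 at Gclm, and limma called 0 of 17078 loci (0%, 217 loci at an unadjusted p under 0.05). The widest 95% confidence interval was that of Keap1, from -0.16 to 0.098. With array weights limma called 2729 loci in this comparison, none of the members among them. The probes common to both designs gave Sqstm1 a fitted difference of 0.158. In limma it did not pass adjustment over all loci (p = 0.0022, adjusted p = 0.34). With the same probes, the means over mice at Sqstm1 differed by 0.11 (exact permutation p = 0.037 over 7 and 7 mice). Only 7 probes of that locus are common to both designs.

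Within slides, where both groups were hybridized side by side, the members gave no difference that an exact test could call, since 3 mice against 3 allow no p below 0.10. The locus log2 ratio at Gclc differed by -0.14 (anti-PD1 minus CD-HFD) on slide 1 and by 0.11 on slide 2, each at that smallest p of 0.10 and in opposite directions. Gclm also turned, from -0.12 on slide 1 (exact permutation p = 0.20) to 0.088 on slide 2 (exact permutation p = 0.10). At Keap1 the differences were -0.13 and -0.011 on slides 1 and 2, at Sqstm1 -0.025 and 0.036, at Nfe2l2 0.038 and -0.011, and at Nqo1 0.14 and -0.054. In distance from the chromosome, Gclc differed by 0.0075 on slide 1 and 0.057 on slide 2, so its opposite directions were seen in level only. Gclm differed in distance by -0.013 and 0.035, smaller in size than in level. Slide 3 held a single CD-HFD tumour and was not tested.

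Taken over all tumours, the distance from the chromosome set Keap1 and Nfe2l2 apart in opposite directions. At Keap1, the distance was -0.46, -0.22 and 0.14 in the lowest, median and highest anti-PD1 tumour, and -0.41, -0.26 and 0.049 in the CD-HFD tumours, below 0 in 19 of 21. At Nfe2l2, it was 0.079, 0.19 and 0.30, and -0.21, 0.19 and 0.44, above 0 in 20 of 21. The fitted mean was -0.26 ± 0.030 (SE) at Keap1 (adjusted p = 1.7e-08 in limma) and 0.18 ± 0.025 (SE) at Nfe2l2 (adjusted p = 2.9e-07). Gclc (0.064, adjusted p = 0.017) and Sqstm1 (-0.037, adjusted p = 0.036) passed the same limma test, and Nqo1 (0.024, adjusted p = 0.34) and Gclm (-0.016, adjusted p = 0.27) did not. Passing it was common: 82.1% of all loci were called, 32.6% above and 49.5% below their chromosome, beside 4 of the 6 members. The SE is over tumours and mice and leaves out the spread between probes. Only the single reference pool was compared with each tumour, so a distance that all tumours share cannot be told apart from a property of the reference or of the probes.

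GC content differed between these loci and their chromosomes. The 50 kb around the probes held 49.2% G and C on average at Keap1, against 43.7% over chromosome 9, and 42.5% at Nfe2l2, against 43.5% over chromosome 2. After a correction for the GC content of the probe and its surroundings, the mean distance was -0.060 at Keap1 (adjusted p = 0.0037 in limma) and 0.12 at Nfe2l2 (adjusted p = 0.00031), while 63.8% of all loci were still called. The corrected distance at Keap1 lay on one side in one array design only. It was -0.14 to -0.062 in the 13 tumours of slides 2 and 3 (mean -0.11), and -0.045 to 0.11 in the 8 tumours of slide 1 (mean 0.027), without overlap. Sqstm1 (-0.015, adjusted p = 0.51) and Gclc (0.045, adjusted p = 0.12) no longer passed. Among the 17078 loci, 4.80% lay below Keap1 before the correction and 19.1% after it, and 91.7% and 92.1% lay below Nfe2l2. With only the 3 probes of Nfe2l2 common to both designs its mean distance was 0.0042, and with 1 Mb on each side it was -0.023.

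**Figure D2:**
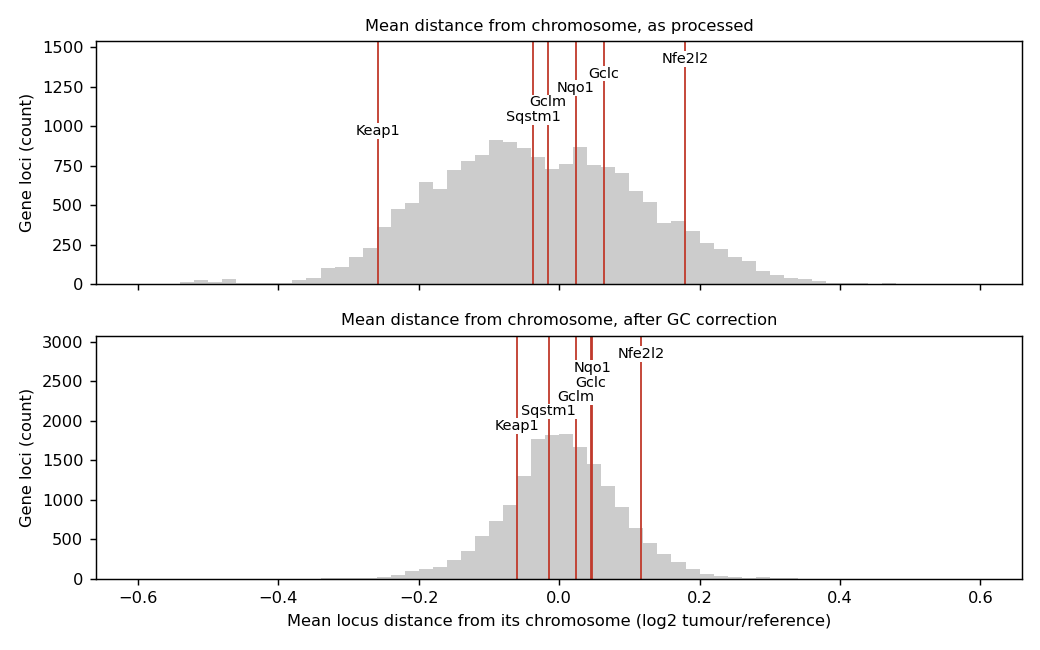
Number of gene loci (vertical axis) by mean distance of the locus from its chromosome (horizontal axis, log2), before (top) and after (bottom) GC correction, with the 6 genes as red lines. Keap1 moves from -0.26 to -0.060, whereas Nfe2l2 stays to the right, at 0.18 and 0.12.

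The distance also moved with the slide, and so with the array design. At Sqstm1, it was -0.0083 to 0.069 in the 8 tumours of slide 1 and -0.17 to -0.032 in the 13 tumours of slides 2 and 3. At Gclc, it was 0.084 to 0.32 on slide 1 and -0.067 to 0.057 on slides 2 and 3. The tumours of the separate designs did not overlap at these 2 genes, nor at 9.93% of all loci, and they did overlap at the other 4. After GC correction they stayed apart at Sqstm1, Gclc and Keap1, and at 15.3% of all loci. In level, the designs overlapped at all 6 members, and they stayed apart at 1.97% of all loci. With common probes, 0% of loci kept the designs apart, and the ranges at Gclc became 0.12 to 0.43 and -0.011 to 0.29. Those probes put Sqstm1 above its chromosome, at 0.15 (adjusted p = 1.4e-05 in limma). The sign of the distance at Sqstm1 therefore changed with the set of probes.

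**Figure D3:**
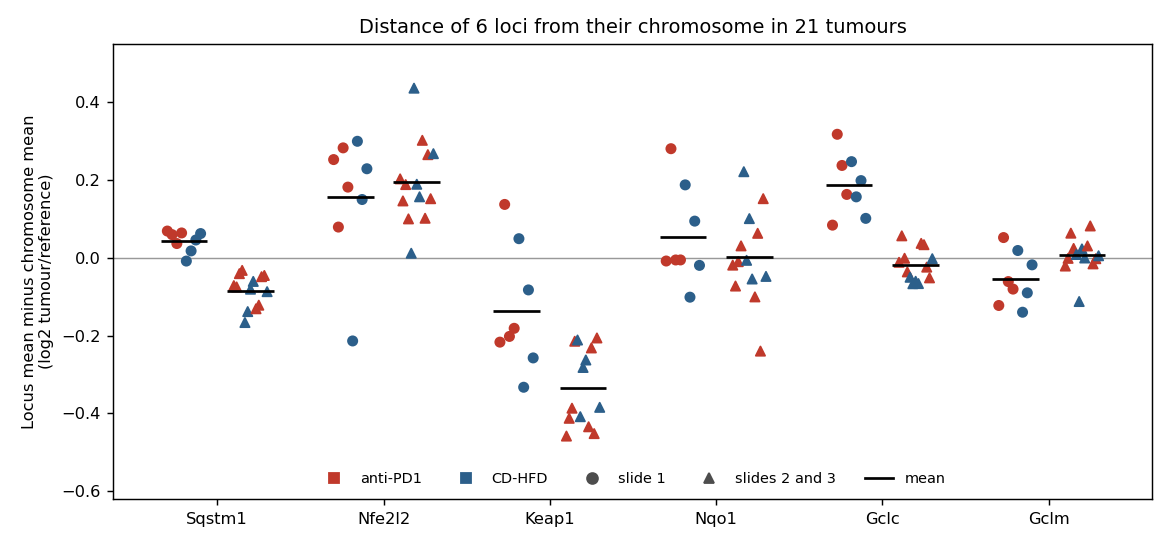
Distance of each locus from the mean of its chromosome (vertical axis, log2) in 21 tumours, with circles for slide 1, triangles for slides 2 and 3, red for anti-PD1, blue for CD-HFD and black bars for the mean of the tumours shown. At Sqstm1 and Gclc the circles lie above the triangles without overlap, whereas red and blue are mixed at every gene.

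Gains and losses were then called from segments, stretches of a chromosome with one mean log2 ratio, where that mean was at least 0.2 above or below 0. Of 126 pairs of a member and a tumour, 6 lay in a gained and 15 in a lost segment. Over all loci, 8.48% of pairs lay in a gained and 15.9% in a lost segment, 24.4% together. After GC correction, 2 gains and 6 losses were left at the members, beside 4.26% and 3.02% of all pairs (7.28% together).

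Keap1 held more calls than any other member, with losses in 10 of 21 tumours, 7 with anti-PD1 and 3 without. By mouse, these tumours came from 4 of 7 mice with anti-PD1 and 3 of 7 without. In 8 of the 10 tumours the lost segment was 1.23 to 1.64 Mb long, with a mean of -0.51 to -0.37. None of these short losses was called after GC correction. The other 2 were 608 L1 and 608 L6, both from the anti-PD1-treated mouse 608, in which the whole of chromosome 9 formed 1 segment of 121.0 Mb with a mean of -0.38 in each. After GC correction these means were -0.39 and -0.36. The array of 608 L1 had the lowest share of spots well above background, 65.0%.

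Gclc lies on the same chromosome and was in the lost segment of the same 2 tumours. With another background correction (normexp with an offset of 50) Gclc was lost in 1 tumour, and with common probes in 2. Along chromosome 9, all 31 windows of 4 Mb were below 0 in 608 L1 (from -0.54 to -0.29) and in 608 L6 (from -0.49 to -0.19) after GC correction. The third tumour of the mouse, 608 L3, had a chromosome mean of -0.10, with windows from -0.29 to -0.0033, and was not called. The locus mean at Gclc was less low than its chromosome in both tumours, at -0.064 in 608 L1 and -0.14 in 608 L6, on the slide where its distance was above 0 in every tumour. At Keap1, the locus means were -0.24 and -0.58. The genes of the glutathione transferase Gsta4 and of the malic enzyme Me1, 2 further NRF2 targets on chromosome 9, were lost in the same 2 tumours. The lost segment was the whole chromosome there, so it held every gene on it, and these losses are not separate cases. Gsta4 also lies inside the locus of Gclc as defined here.

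**Figure D4:**
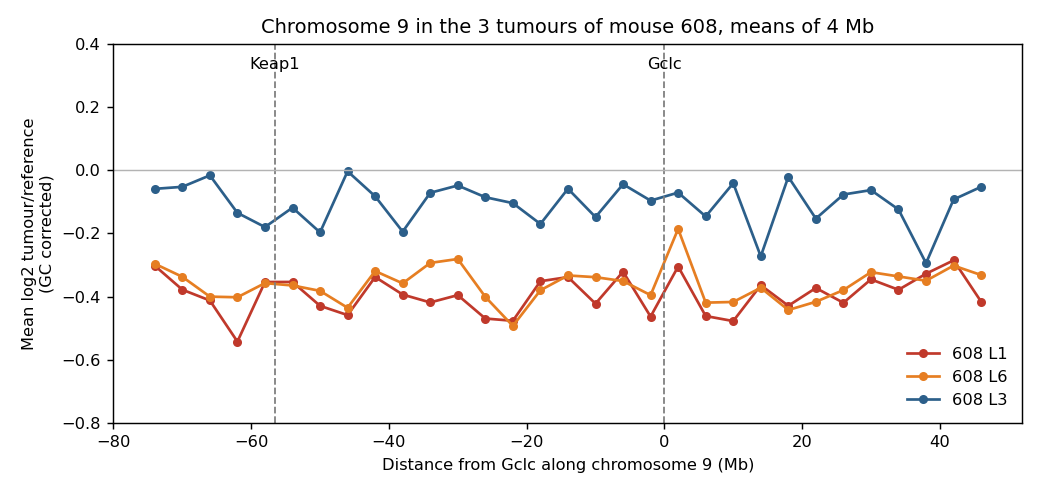
Mean GC-corrected log2 ratio (vertical axis) in windows of 4 Mb along chromosome 9, by distance from Gclc in Mb (horizontal axis), in the 3 tumours of mouse 608, with dashed lines at Keap1 and Gclc. The tumours L1 and L6 lie between -0.54 and -0.19 along the whole chromosome, and L3 lies above both in all 31 windows.

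Tumour 1770 L1, from a CD-HFD mouse, carried calls at 3 members before and after GC correction. Its array was among the weaker ones, with 82.1% of spots well above background and r = 0.75 with the median of its design. In this tumour chromosome 3, with Gclm, was gained as 1 segment of 156.6 Mb (mean 0.34, and 0.32 after correction). Its chromosome 8, with Nqo1, was lost as 1 segment of 128.6 Mb (mean -0.22 under both settings), although the Nqo1 locus itself was at -0.027. Around Nfe2l2, a segment of 31.2 Mb was lost (mean -0.22, and -0.25 after correction), while the rest of chromosome 2 left the chromosome mean at -0.0024. The other tumour of this mouse, 1770 L4, had no call at these 3 genes, with locus means of 0.036 at Gclm, -0.15 at Nqo1 and 0.22 at Nfe2l2. With normexp no tumour had a gain at Gclm or a loss at Nfe2l2, while Nqo1 was still lost in 1 CD-HFD tumour. With common probes no tumour had a loss at Nqo1, while Nfe2l2 was lost in 1 CD-HFD tumour and Gclm gained in 2.

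Nqo1 was gained in 612 L2, an anti-PD1 tumour, in a segment of 59.2 Mb with a mean of 0.21. After GC correction the whole of chromosome 8 formed that segment, with a mean of 0.30. The other calls were lost with the correction: 4 gains of 53.3 to 53.4 Mb around Nfe2l2 (2094 L1, 2094 L3, 608 L3 and 822, means of 0.22 to 0.25), and the single loss at Sqstm1 (608 L6, mean -0.23 over 81.5 Mb). After correction, Sqstm1 was thus in 0 gained and 0 lost segments in 21 tumours. The share of tumours with a call, averaged over mice, was 52.4% with anti-PD1 and 28.6% without at Keap1 (exact permutation p = 0.39 over 7 and 7 mice) and 14.3% and 21.4% at Nfe2l2 (exact permutation p = 0.85 over 7 and 7 mice), and at the other 4 members each p was 1.

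**Figure D5:**
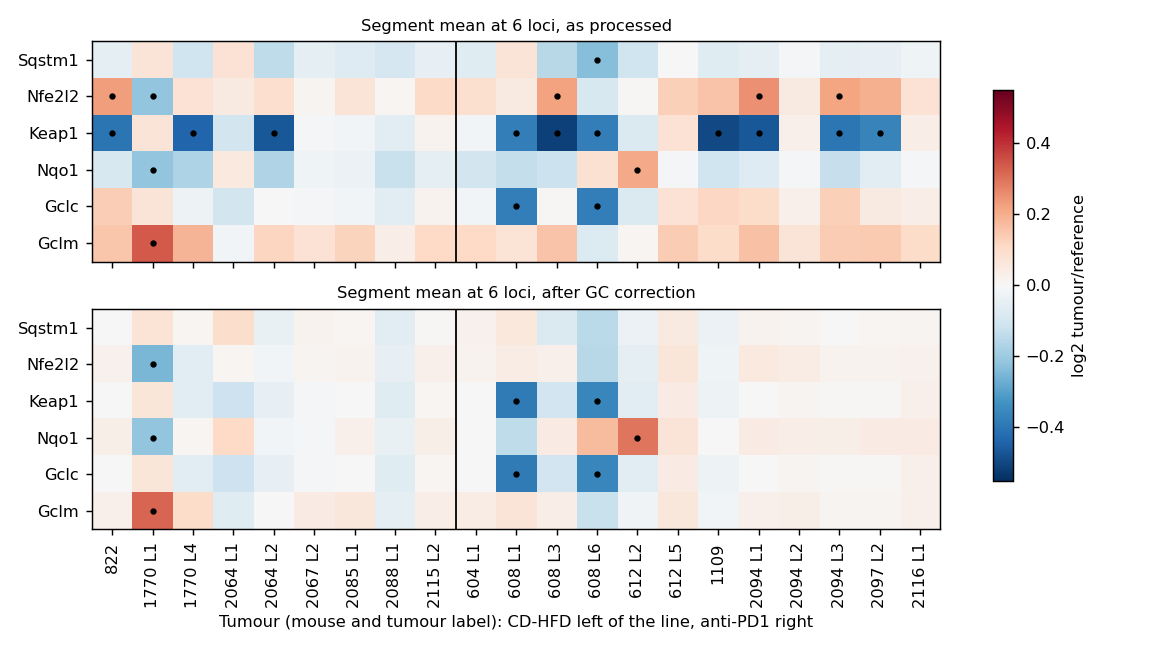
Mean log2 ratio (colour) of the segment that holds each gene (rows) in each tumour (columns, named by mouse and tumour label), before (top) and after (bottom) GC correction; black dots mark means of at least 0.2 in size. After correction 8 dots are left, in 608 L1, 608 L6, 612 L2 and 1770 L1.

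The wider pathway was described with 3 lists: 20 genes of p62 partners and autophagy, 12 NRF2 regulators, of which 11 were measured, and 26 NRF2 targets, of which 24 were measured. No gene of the lists differed between the groups in level or in distance. Beside the 82.1% of all loci called, 4 genes of the autophagy list were above and 12 below their chromosome, with a median distance of -0.089, against -0.036 over all loci. Mtor, the kinase that holds autophagy down in fed cells, was lowest (-0.24) and Gabarapl1, which codes for a protein of the autophagosome membrane, was highest (0.21). Among the regulators, 2 were above and 6 below, with a median of -0.097, from Mafk (-0.23), which codes for a small MAF partner of NRF2, to Bach1 (0.16), a repressor at the same DNA sites. Among the targets, 7 were above and 10 below, with a median of -0.019, from the pentose phosphate enzyme Taldo1 (-0.17) to the haem oxygenase Hmox1 (0.18). After GC correction these extremes moved to -0.037 (Mtor), 0.077 (Gabarapl1), -0.020 (Mafk), 0.15 (Bach1), 0.048 (Taldo1) and 0.16 (Hmox1), so that Taldo1 changed sign. The balance of the lists turned with the correction as well. It left 7 autophagy genes above and 6 below their chromosome (median 0.0088), 6 regulators above and 2 below (median 0.055), and 14 targets above and 5 below (median 0.038), beside 34.1% of all loci above and 29.6% below (median 0.0041). No direction of a list therefore held under both settings. In gained or lost segments after GC correction were 5.95% of the gene and tumour pairs of the autophagy list, 10.4% of the regulators and 7.34% of the targets, beside 7.28% of all pairs.

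Over 14 mice, the locus log2 ratios correlated at r = 0.83 between Sqstm1 and Keap1, 0.81 between Sqstm1 and Gclc and 0.76 between Keap1 and Gclc, but at -0.54 between Nfe2l2 and Keap1 and 0.24 between the subunit genes Gclc and Gclm. These correlations share the arrays, the reference and the split by array design, and are given as a description. The locus on another chromosome whose distance was most like that of a member, among 15389 to 15977 loci, was Med6 for Sqstm1 (r = 0.96), Ceacam5 for Nfe2l2 (0.83), Sephs2 for Keap1 (0.98), Parp9 for Nqo1 (0.93), Enpep for Gclc (0.95) and Smg6 for Gclm (0.89), each over 14 mice. Each r was picked as the highest of all those loci, so a high value follows from the choice. The distances share the arrays, the reference and the split by array design too.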

How the data were processed

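The authors deposited the scanner output of each array (Feature Extraction 11.0.1.1, mm9 positions), with intensity values of both channels, together with their own loess-normalized log2 values of 11526 probes, in 21 columns matched by name. The processed intensity values were background-subtracted and dye-normalized by the software. How the arrays were analysed is not given in the sources used here. Here the log2 ratio of tumour (Cy3) over reference (Cy5) was centred on each array's median. Control and outlier-flagged spots were left out, and spots of a probe were averaged.

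A gene locus was the mean of the probes within 500 kb of a probe named for the gene. Of 23170 names on the arrays, 17177 matched a RefSeq symbol and 17078 loci with at least 5 probes on every array were tested. Positions are those of the files and were not converted. Probe sequences were matched exactly to GRCm38 (99.7% at a single place) to obtain GC content (the probe, and 50 kb around it) and exon annotation. limma 3.58.1 (R 4.3.3) was fitted across all loci, with the mouse as block (correlation estimated on every 10th locus) and Benjamini-Hochberg adjustment, and single loci were also compared by exact permutation of 14 mice (3432 splits, smallest p 0.00058). P-values weigh an effect against the spread between these tumours or mice and leave out the spread between probes. Segments came from optimal partitioning (penalty 3 times the noise variance times the log of the probe number, at least 10 probes) run with numba 0.67.0 and numpy 2.4.6 under Python 3.11.15. Steps were tested on simulated data.

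The members and lists were chosen with earlier results of these data known. Named genes were the members, for each the most similar locus on another chromosome with at least 10 probes, and from each list the genes past a group test or else its highest and lowest distance. Alternatives were the authors' loess ratios, normexp with an offset of 50, spots well above background, common probes, GC correction, 250 kb and 1 Mb, the median of probes, independent tumours, mouse means, the slide as a block, array weights, other segment settings and each mouse left out. The slide block with common probes or with GC correction was chosen after seeing the data. Gsta4 and Me1, which were outside the rule, were named after their values were seen.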

Additional observations from a re-analysis of the deposited data

Results flagged for a closer look

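Of 24 sets of 7 mice (6 genes, level and distance, both groups), 3 held a mouse whose gap to the nearest other mouse was large for the range of its group. Chance flags about 1 set in 20, or 1.2 of 24. All 3 concerned the distance from the chromosome in anti-PD1-treated mice. Mouse 604 was high at Sqstm1, at 0.069 against -0.064 to -0.012 in the other 6 mice. The same mouse was low at Gclm, at -0.12 against -0.016 to 0.063. Its only tumour was on slide 1, and it was the only anti-PD1-treated mouse whose tumours were all on that slide. Mouse 1109 was low at Nqo1, at -0.24 against -0.0099 to 0.058 in the others. The part of the slide and array design in these values was not tested.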

How the results depend on the processing

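No locus was called between the groups in level under any alternative. In distance, 2729 of 17078 loci were called with array weights (734 higher, 1995 lower). With common probes 2 loci were called in distance, with or without the slide as a block (both lower). In all of these, 0 members were called. The difference in level changed sign at 5 of the 6 members, Keap1 being the exception. At Sqstm1 (-0.012) the difference became 0.051 with the authors' loess ratios, 0.12 with common probes, 0.041 with the median of probes, 0.0077 with the slide as a block, and 0.14 and 0.013 with that block plus common probes or GC correction. At Nfe2l2 (0.030) it became -0.0036 with 250 kb and -0.018 with array weights. At Nqo1 (0.021) it became -0.0043 with common probes, -0.026 with array weights and -0.0067 with mouse means. At Gclc (-0.032) it became 0.0086 with normexp. At Gclm (-0.0029) it became 0.14 with loess ratios, 0.046 with common probes, 0.046 with array weights, 0.00093 with mouse means and 0.031 with the slide block and common probes. Without 1 mouse the range was -0.041 to 0.013 at Sqstm1, -0.019 to 0.050 at Nfe2l2, -0.0098 to 0.060 at Nqo1, -0.079 to 0.017 at Gclc, -0.031 to 0.032 at Gclm and -0.11 to -0.042 at Keap1, and 0 loci were called. In distance, Sqstm1 became -0.0025 and Nfe2l2 -0.0019 with normexp, Nfe2l2 -0.014 and Gclm -0.012 with 250 kb, Nqo1 0.029 and Gclm -0.0035 with the median of probes, and Keap1 0.00042 with the slide as a block, 0.0036 with common probes as well and 0.00047 with GC correction as well. Without 1 mouse it ranged from -0.015 to 0.035 at Sqstm1, -0.019 to 0.039 at Nfe2l2, -0.068 to 0.017 at Keap1 and -0.029 to 0.066 at Gclc.

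Against 0, Keap1 stayed below its chromosome and past the threshold under all 14 alternatives (-0.29 to -0.060), although after GC correction the 8 tumours of slide 1 had a mean of 0.027. Sqstm1 changed sign with loess ratios (0.19), common probes (0.15, and 0.16 with the slide block) and 250 kb (0.018), and was not called with normexp (-0.0042), bright spots (-0.026), GC correction (-0.015), the median (-0.011), independent tumours (-0.036) or mouse means (-0.030). Nfe2l2 was not called with common probes (0.0042, and 0.016 with the slide block) and changed sign with 1 Mb (-0.023). Gclc was not called with GC correction (0.045), the median (0.039), mouse means (0.045) or array weights (0.034). Nqo1 changed sign with normexp (-0.0041) and 1 Mb (-0.013) and passed with 250 kb (0.12). Gclm changed sign with common probes (0.036, and 0.039 with the slide block) and GC correction (0.023, and 0.027 with the slide block), and passed with 250 kb (-0.10). Without 1 mouse, Sqstm1 ranged from -0.041 to -0.025, not called without mouse 2094, 2064, 2088, 2115 or 822, and Gclc from 0.037 to 0.087, not called without mouse 608 or 1770. The number of member and tumour pairs in gained or lost segments (21 of 126) became 53 and 13 with thresholds of 0.1 and 0.3. It became 11 with normexp, 9 with common probes and 8 with GC correction. Without 1 mouse it ranged from 14 to 21, the lowest without mouse 608. These counts were over fewer than 126 pairs, because the tumours of the mouse left out dropped out. The share over all loci without each mouse is not given here. Over all loci 24.4% of pairs lay in such segments, and 49.2% and 10.7% with thresholds of 0.1 and 0.3. That share was 15.7% with normexp, 18.1% with common probes and 7.28% with GC correction. The cause of these changes was not tested.

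No paired analysis was possible because the labels give the groups no shared mouse or replicate number. The probe count, from 15 per array at Nfe2l2, limits what a locus mean can resolve, and single-gene changes were not resolved.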
